A study of Mus musculus with 35 samples.

Results

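The constitutive proteasome genes were followed across 9 groups of mouse B cells and lymphoid tumours. Members were the genes whose symbol was Psma, Psmb, Psmc or Psmd followed by a digit, without the inducible subunits Psmb8, Psmb9 and Psmb10, and each gene was read from its probe set of highest mean over the 35 arrays. The rule gave 36 of the 12393 genes measured. Of these, 15 encode the core particle (8 alpha and 7 beta genes) and 17 the regulatory particle (6 ATPases and 3 other subunits of its base, and 8 subunits of its lid). Psmd5, Psmd9 and Psmd10 are chaperones that help to assemble the base and leave it afterwards. Psmc3ip, a recombination protein, shares only the letters of the rule and is given apart. Genes above the median level of all genes included 35 of the 36 members, and the exception was Psma8, the alpha subunit of testis, with a mean log2 intensity of 5.13.

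The proteasome degrades proteins tagged with ubiquitin. Its core is a barrel of stacked alpha and beta rings. The inner beta subunits Psmb5, Psmb6 and Psmb7 carry the chymotrypsin-like, caspase-like and trypsin-like activities. The regulatory particle binds the tagged protein, removes the ubiquitin, and unfolds and feeds the chain into the core. In lymphoid cells the inducible subunits Psmb8, Psmb9 and Psmb10 can take the places of Psmb5, Psmb6 and Psmb7. Plasma cells, which secrete large amounts of antibody, are known for a heavy load on protein degradation.

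Sorted cells were wild-type. Bone marrow gave 3 groups: B220+ IgM- cells with high CD43 (pro-B, n = 3, of which 2 arrays were from strain 129 and 1 from B6), B220+ IgM- cells with low CD43 (pre-B, strain 129, n = 3), and Cd138+ Cd93- cells with low B220 (plasma cells, strain B6, n = 3). Spleen gave B220+ Cd93+ cells (transitional, strain 129, n = 4), B220+ cells with high PNA binding (germinal centre or GC cells, strain B6, n = 5) and B220+ Cd138+ Cd93- cells (plasmablasts, strain B6, n = 4). Lymphoid tumours, for which no sort is named, came from mice named Bcl6 transgenic in the strain label and Bcl6 knock-in in the genotype label (n = 4), Myc/Bcl6 dual-transgenic mice (n = 3) and Lig4/p53 double knock-out mice (n = 6). Promoters of the transgenes, ages and whether samples were single mice or pools are not given in the sources used here, so p-values measure only the spread between these samples. All transitional arrays were from strain 129 and all GC arrays from B6.

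All values are log2 intensities, so levels are compared between arrays for a gene and never between genes. The Bcl6 probe set read 6.23 to 8.52 in the tumours labelled Bcl6 and 4.18 to 9.1 in those labelled Myc/Bcl6, below the 10.63 to 11.57 of GC cells. Myc read 4.93 to 5.41 in the tumours labelled Myc/Bcl6, below its 5.77 to 7.19 in the tumours labelled Bcl6 and its 10.1 to 11.31 in the Lig4/p53 tumours, which goes against the label. Whether these probe sets read the transgenes is not given in the sources used here. In 3 arrays the gene values were narrowly spread: the interquartile range was 2.26 in pro-B replicate 1, 2.06 in pre-B replicate 2 and 2.23 in replicate 2 of the tumours labelled Bcl6. The 3 tumours labelled Myc/Bcl6 followed with 2.39 to 3.18, and the other arrays had 3.42 or more. The 3' minus 5' difference of the control probe sets for Actb and Gapdh, which is larger when RNA is shorter, was 0.68 to 1.55 in GC cells, 3.65 to 4.60 in the tumours labelled Bcl6, 3.23 to 4.69 in those labelled Myc/Bcl6 and 2.25 to 3.64 in the Lig4/p53 tumours. The 4 plasma cell markers measured (Sdc1, Prdm1, Xbp1, Irf4) averaged 7.37 in plasma cells against 8.53 in plasmablasts and 8.59 in pre-B cells, so they did not set the plasma cells apart. The 6 granulocyte markers averaged 10.77 in pro-B and 10.93 in pre-B cells.

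By group mean, subunits of both particles were highest in plasma cells and Lig4/p53 tumours, but this order depended on single arrays of other groups, given below. Core subunits were lowest in the tumours labelled Bcl6 and Myc/Bcl6. Regulatory subunits were low in these tumours and, through replicate 2 only, in pre-B cells. For each array, the log2 values of the 15 core genes, and of the 17 regulatory genes, were averaged after subtracting from each gene the mean of its 6 normal stages. The core mean was 0.263 ± 0.321 in GC cells (SD, n = 5), 0.322 ± 0.245 in plasma cells (n = 3) and 0.372 ± 0.210 in Lig4/p53 tumours (n = 6). It was -0.832 ± 0.800 in tumours labelled Bcl6 (n = 4) and -0.889 ± 0.591 in those labelled Myc/Bcl6 (n = 3). The other 4 groups lay between -0.229 and -0.064. The regulatory mean was 0.562 ± 0.276 in plasma cells and 0.512 ± 0.104 in Lig4/p53 tumours, and -0.478 ± 0.642 and -0.523 ± 0.788 in the tumours labelled Bcl6 and Myc/Bcl6. Pre-B cells had a group mean of -0.438 ± 1.34, from 0.364, -1.985 and 0.306 in replicates 1 to 3. Replicates 1 and 3 were above every GC array (at most 0.27). After renewed quantile normalization the regulatory mean was lowest in pre-B cells (-0.32, arrays from -1.368 to 0.217), with -0.28 in tumours labelled Bcl6 and -0.184 in those labelled Myc/Bcl6. The genes above the median level, the class to which nearly all members belong, averaged 0.255 in Lig4/p53 tumours, -0.263 in tumours labelled Bcl6 and -0.629 in those labelled Myc/Bcl6, so well-expressed genes at large lay on the same side in these groups.

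**Figure D1:**
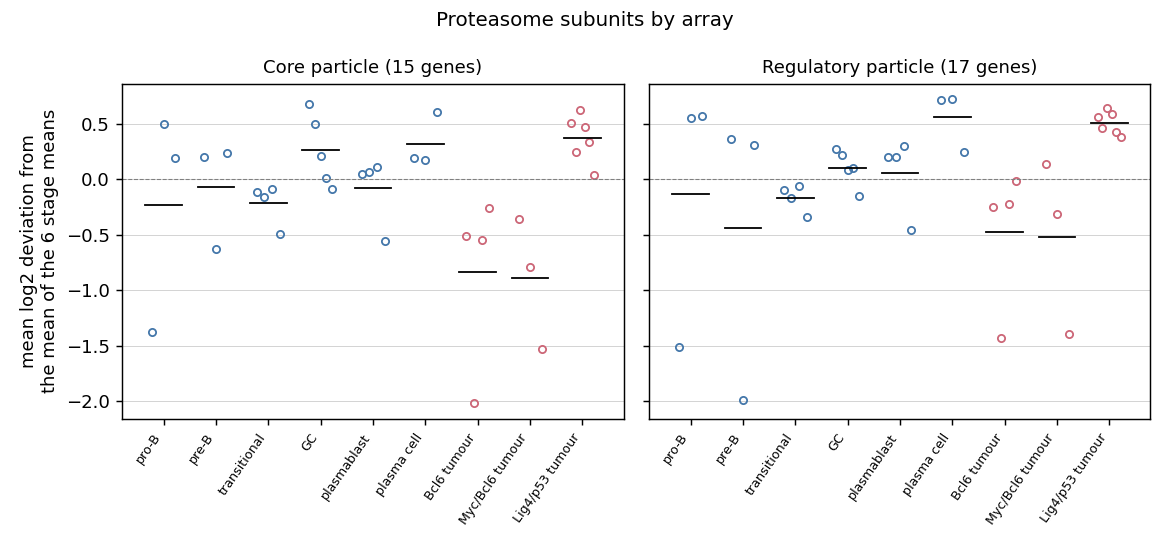
Mean log2 deviation of the 15 core genes and of the 17 regulatory genes in each of the 35 arrays, by group, with group means as bars; 0 is the mean of the 6 normal stages. Replicate 2 of the tumours labelled Bcl6 is the lowest core value (-2.02), pro-B replicate 1 lies at -1.38, and all 6 Lig4/p53 tumours lie above 0 in both particles.

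Single arrays carried much of this spread. In tumours labelled Bcl6 the core mean was -0.51, -2.02, -0.54 and -0.26 in replicates 1 to 4. In those labelled Myc/Bcl6 it was -0.36, -0.79 and -1.52. Pro-B cells read -1.38, 0.5 and 0.19, and pre-B cells 0.2, -0.63 and 0.24. The lowest array of the pro-B group, of the pre-B group and of the tumours labelled Bcl6 was in each case its array of narrow spread, and its low mean was shared by the regulatory genes (-1.51, -1.99 and -1.43). Pro-B replicates 2 and 3 had regulatory means of 0.558 and 0.568, within the 0.244 to 0.726 of plasma cells. Apart from the array of narrow spread, pro-B cells were thus not below plasma cells in regulatory genes. Lig4/p53 tumours were more uniform, with core means between 0.04 and 0.62 and regulatory means between 0.38 and 0.64.

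Across the 9 group means, members ranged over 0.803 to 3.982 log2 units, with a median of 2.14. For the 35 members above the median level the median range was 2.17, against 2.36 for all genes above that level. The narrowest was Psmb3, a structural beta subunit, whose group means stayed between 10.32 in tumours labelled Myc/Bcl6 and 11.12 in transitional cells. The widest was Psmb2, another structural beta subunit, with 4.98 in tumours labelled Myc/Bcl6 and 8.96 in plasmablasts. Plasma cells were the highest group for 15 of the 36 members and Lig4/p53 tumours for 8. Tumours labelled Myc/Bcl6 were the lowest group for 15 members, pre-B cells for 8 and tumours labelled Bcl6 for 5. These group means include the arrays of narrow spread.

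**Figure D2:**
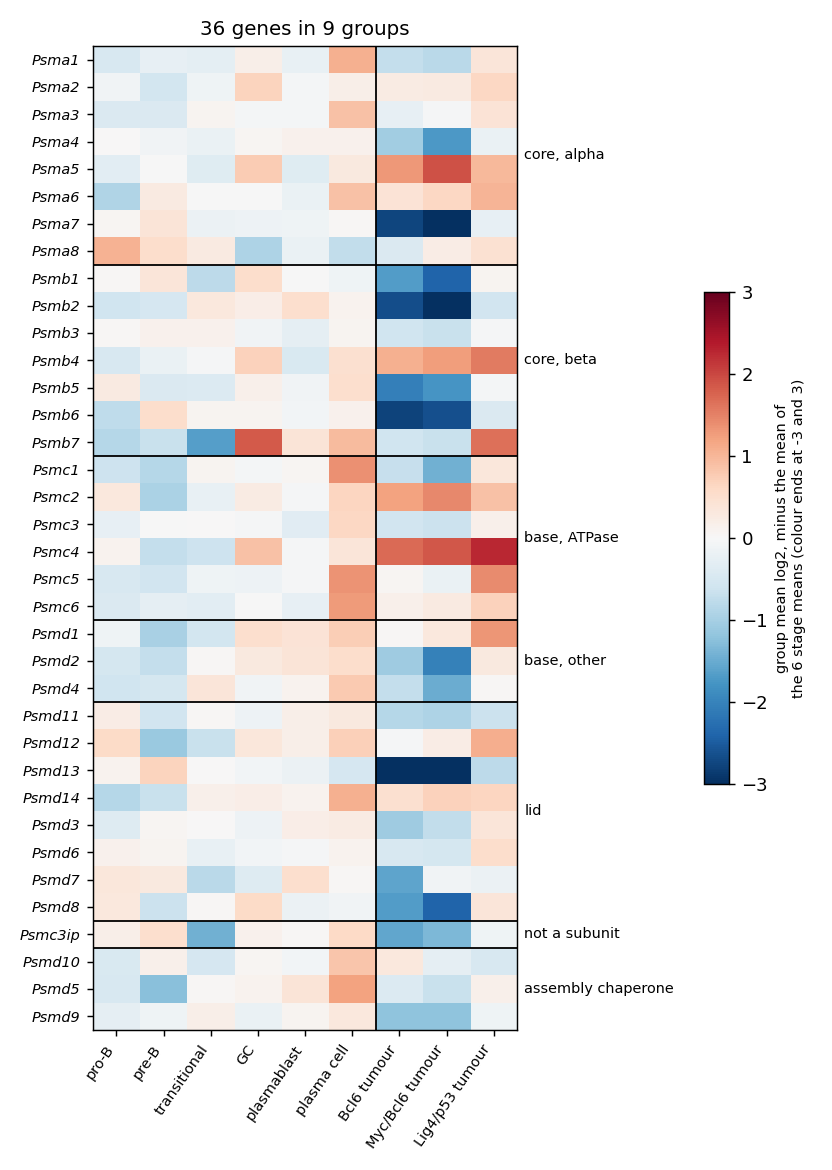
Group means of the 36 members by subcomplex (rows) in the 9 groups (columns), as log2 differences from the mean of the 6 normal stages of each gene. The low values in both left tumour columns gather in beta and lid genes such as Psmb2, Psmb6 and Psmd13, while the ATPases of the base (Psmc genes) are high in Lig4/p53 tumours and plasma cells.

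Among the 6 normal stages, few subunits differed beyond the spread of the arrays. A limma F-test over the stages called 6 of the 36 members at a Benjamini-Hochberg adjusted p under 0.05, against 32.5% of all genes (n = 22 arrays). They were the core genes Psma5 (adjusted p = 0.00936), Psma8 (0.000164), Psmb1 (0.0172), Psmb4 (0.0122) and Psmb7 (0.0196), and the ATPase Psmc6 (0.00706). Plasma cells had the highest stage mean for 21 members and GC cells for 7, while pre-B cells had the lowest for 13 and pro-B cells for 10. The pre-B and pro-B means include an array of narrow spread each. Ranges of the 6 stage means ran from 0.333 for Psma4 to 3.500 for Psmb7, with a median of 1.30. Without the 3 arrays of narrow spread 19 members were called, beside 62.7% of all genes, and without pro-B replicate 1 or pre-B replicate 1 there were 10.

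From pro-B to pre-B cells, no member was called by limma, against 0.161% of all genes, and 2 had an unadjusted p under 0.05. The members' median difference was 0.07, beside 0.11 for all genes. From pre-B to transitional cells 1 member was called, against 5.84% of all genes. It was Psmb1, a structural beta subunit, with 9.86, 10.3 and 9.82 in pre-B cells and 8.79, 8.75, 9.30 and 8.55 in transitional cells. The arrays did not overlap, and the gene fell by 1.14 ± 0.31 log2 units (SE, adjusted p = 0.0338). Members had a median difference of 0.02, all genes of 0.04 and genes above the median level of 0.34, but the median of the members was -0.43 without the arrays of narrow spread. Markers of granulocytes (10.93 against 4.53), red cell precursors (7.66 against 4.38) and mitosis (8.58 against 5.91) were higher in pre-B than in transitional cells, and their part in these differences was not tested. The call of Psmb1 was lost without pre-B replicate 2 or transitional replicate 1, 2 or 4. Without the arrays of narrow spread 4 members fell (14% of all genes called): Psmb1 (-0.99), Psmb7 (-2.22), Psmd1, a scaffold of the base (-1.24), and Psmc3ip (-2.47).

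From transitional to GC cells 4 members were called, 3 higher and 1 lower, against 13.5% of all genes, which is near the members' own share. Psmb7, the trypsin-like subunit, read 6.58, 6.26, 6.71 and 6.33 in transitional cells and 10.54, 10.36, 9.99, 9.81 and 9.14 in GC cells. The groups were far apart with no overlap, and Psmb7 rose by 3.50 ± 0.80 log2 units, or 11.3-fold (adjusted p = 0.00705). Its transitional level was also below 8.79 and 9.08 in pro-B replicates 3 and 2, below 8.68 and 8.70 in pre-B replicates 1 and 3, and below all 4 plasmablast arrays (7.79 to 9.33). Only the arrays of narrow spread were lower, at 3.99 in pro-B replicate 1 and 4.99 in pre-B replicate 2 among the sorted cells.

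Psmb1 read 10.72, 10.57, 9.87, 9.79 and 9.76 in GC cells, above every transitional array, and rose by 1.30 ± 0.28 (adjusted p = 0.0043). Its other bright probe sets gave 1.58, also called, and -0.07, not called. Psma5, an alpha ring subunit, read 8.87, 9.11, 8.64 and 8.21 in transitional cells and 10.31, 10.05, 9.91, 9.51 and 9.36 in GC cells. It rose by 1.12 ± 0.26 (adjusted p = 0.00818), while its other bright probe set gave 0.03. Psma8, dim in all groups, fell by 1.19 ± 0.26 (adjusted p = 0.00553), from 5.30 to 5.51 in transitional arrays to 4.01 to 4.42 in GC arrays. The median difference was 0.20 for members, with 23 of 36 above 0, against 0.09 for genes above the median level and -0.27 for all genes. With strain as a covariate, for which only pro-B cells hold both strains, limma called none of the 36, and 3 had an unadjusted p under 0.05, so stage and strain cannot be told apart in this step. Without the arrays of narrow spread 9 members rose and 2 fell, at 41.5% of all genes called, and Psma2 (0.79), Psmb4 (0.74), Psmc4 (1.50), Psmd1 (1.06) and Psmd12 (0.99) were among those that rose. The GC arrays also had more signal than transitional arrays from markers of granulocytes (8.87 against 4.53), NK cells (7.55 against 4.25), T cells (7.15 against 5.29) and mitosis (8.74 against 5.91); their part in these differences was not tested.

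From GC cells to plasmablasts 1 member was called, against 0.678% of all genes. Psma5 fell by 1.14 ± 0.26 log2 units (adjusted p = 0.0451), to 8.42, 9.12, 8.69 and 8.50 in plasmablasts, below all 5 GC arrays, but its other bright probe set gave 0.06 (not called), and the mean of its probe sets was not called either. This comparison shares its GC arrays with the one before. The call was lost when any one of GC replicates 1 to 4 or of the 4 plasmablast arrays was left out. Without the arrays of narrow spread Psmb4 (-1.17) and Psmb7 (-1.44) fell as well, beside 6.82% of all genes. From plasmablasts to plasma cells 1 member was again called, against 14.3% of all genes. It was Psmc6, an ATPase of the base, with 9.64, 9.75, 9.50 and 8.79 in plasmablasts and 11.13, 11.09 and 10.58 in plasma cells. The groups did not overlap, and Psmc6 rose by 1.51 ± 0.34 (adjusted p = 0.00397). Granulocyte markers (8.25 against 3.22), mitosis genes (7.49 against 8.95) and the 18S rRNA signal (10.2 to 10.9 against 4.02 to 7.38) also differed between plasmablasts and plasma cells, and their part was not tested. Differences of 31 of 36 members were above 0, with a median of 0.47 beside 0.22 for all genes and 0.13 for genes above the median level. The 6 base ATPases had a median of 1.14, the 8 alpha genes of 0.45, the 7 beta genes of 0.34 and the 8 lid genes of 0.10, but only Psmc6 passed the test. As a deviation from the normal stages, the ATPase mean was 1.214 and 1.3 in plasma cell replicates 1 and 2 but 0.304 in replicate 3. The 3' minus 5' difference was 4.59, 4.46 and 0.451 in these arrays, and 0.93 to 1.16 in plasmablasts. Without the arrays of narrow spread, which lie in other groups and here only set the estimate of spread, 12 members rose and none fell, beside 32.5% of all genes. They were the ATPases Psmc1 (1.31), Psmc3 (0.97), Psmc5 (1.40) and Psmc6, the core genes Psma1 (1.30), Psma3 (0.95), Psma6 (1.09) and Psmb4 (0.94), the deubiquitinase Psmd14 (0.96), the ubiquitin receptor Psmd4 (0.69) and the chaperones Psmd5 (0.82) and Psmd10 (0.92).

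The 3 plasma cell arrays did not read the proteasome alike. Replicates 1 and 2 differed from each other by at most 0.52 log2 units over the 36 members, while 14 members differed by more than 1 between replicate 3 and both of them, 7 higher and 7 lower in replicate 3. Lower in replicate 3 were the ATPases Psmc4 (10.28 and 10.36 against 7.02) and Psmc2 (10.24 and 10.27 against 8.07), the lid genes Psmd12, Psmd6 and Psmd14, the base scaffold Psmd1 and the core gene Psma6. Higher in replicate 3 were Psmb5 (9.29 and 9.44 against 11.92), Psmb6 (9.23 and 9.26 against 10.76), Psmb2 (7.87 and 7.93 against 9.89), Psma4, Psma7, the lid gene Psmd13 (7.58 and 7.50 against 9.83) and Psmc3ip. Among these subunits, those lower in replicate 3 were regulatory apart from Psma6, and those higher were core apart from Psmd13. The core mean minus the regulatory mean was -0.527 and -0.554 in replicates 1 and 2 and 0.36 in replicate 3. The 3' minus 5' difference moved with this split, at 4.59 and 4.46 against 0.451, as did the 18S rRNA signal, at 4.02 and 4.21 against 7.38. Their part in it was not tested. Without replicate 3 the step from plasmablasts to plasma cells gave 3 called members instead of 1.

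Tumours labelled Bcl6 and Myc/Bcl6 had lower levels of the catalytic and several other subunits than GC cells, while on the main probe sets no ATPase of the base was called lower. In tumours labelled Bcl6, 10 members fell and none rose (26.8% of all genes were called, 13.9% lower). Of the 7 beta genes 5 fell, and the median of the 7 was -2.22. The 8 alpha genes had a median of -0.30 with 2 lower, the 8 lid genes -0.81 with 2 lower, and the 3 other base genes -0.60 with none called. The 6 ATPases had a median of 0.19 with none called. Over all 36 members the median was -0.57, over all genes it was 0.21, and over the 6196 genes above the median level, of which 1551 fell, it was -0.42. The members as a whole were therefore close to genes of their own level. The median without the arrays of narrow spread was -0.22, with 12 members lower and 3 higher. Both tumour groups are bulk tissue, in which fewer cells of a type and less RNA per cell cannot be told apart.

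In tumours labelled Myc/Bcl6, set against the same GC arrays, 11 members fell and 3 rose, beside 48.1% of all genes called, 20.9% lower and 27.2% higher. At this background the count of members is not by itself a result about the proteasome. Again 5 of 7 beta genes fell, with a median of -2.50, and the 6 ATPases had a median of 0.12 with 1 higher. The median was -0.59 over the members, 0.31 over all genes and -0.79 over the 6196 genes above the median level, of which 2404 fell. The median of genes of the members' own level was thus below that of the members. Psma5 (1.13 ± 0.31, adjusted p = 0.00401), the ATPase Psmc2 (1.20 ± 0.45, adjusted p = 0.0303) and Psma8 (1.15, adjusted p = 0.0354) were the members that rose. Psmd2, a scaffold of the base, fell by 2.31 ± 0.68. Without replicate 3 of these tumours 9 members were called, and without the arrays of narrow spread 23, beside 64.0% of all genes. The ATPase Psmc1 was then among those that fell (-1.39).

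A set of 8 members was called in 4 comparisons at once: Psma7, Psmb1, Psmb2, Psmb5, Psmb6, Psmb7, Psmd13 and Psmd8 were lower in tumours labelled Bcl6 and in those labelled Myc/Bcl6 than in GC cells, and higher in Lig4/p53 tumours than in both. The 4 comparisons share arrays, and these 8 genes were picked for their calls, so the values below describe the set and test nothing. Promoter sequence of the set is shown as a description of genes picked by the same calls. The promoter table from RefSeq (mouse assembly GRCm38.p6) held 5 of them, given here 5′ to 3′ on the strand of the gene and ending at the base before its annotated start, with matches to TGACNNNGC, the core of the antioxidant response element that Nfe2l1 and Nfe2l2 bind, and to CCAAT, the box bound by NF-Y, in capitals. The stretches lie at chr2:180042465-180042714 for Psma7 (minus strand), chr14:54617996-54618245 for Psmb5 (minus strand), chr11:70525107-70525323 for Psmb6 (plus strand), chr7:140882144-140882393 for Psmd13 (plus strand) and chr7:29180674-29180923 for Psmd8 (minus strand).
Psma7: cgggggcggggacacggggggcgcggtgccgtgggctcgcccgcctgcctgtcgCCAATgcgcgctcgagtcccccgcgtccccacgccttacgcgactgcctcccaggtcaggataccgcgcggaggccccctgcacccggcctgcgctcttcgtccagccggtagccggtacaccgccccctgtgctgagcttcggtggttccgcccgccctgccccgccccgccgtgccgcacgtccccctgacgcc
Psmb5: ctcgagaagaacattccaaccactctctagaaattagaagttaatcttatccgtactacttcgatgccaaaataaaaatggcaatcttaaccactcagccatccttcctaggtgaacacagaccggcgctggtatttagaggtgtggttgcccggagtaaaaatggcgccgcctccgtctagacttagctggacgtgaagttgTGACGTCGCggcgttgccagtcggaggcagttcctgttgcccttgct
Psmb6: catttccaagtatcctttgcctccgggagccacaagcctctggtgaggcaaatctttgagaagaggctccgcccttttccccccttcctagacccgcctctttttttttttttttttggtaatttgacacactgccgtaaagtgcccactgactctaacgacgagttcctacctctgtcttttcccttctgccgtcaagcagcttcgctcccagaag
Psmd13: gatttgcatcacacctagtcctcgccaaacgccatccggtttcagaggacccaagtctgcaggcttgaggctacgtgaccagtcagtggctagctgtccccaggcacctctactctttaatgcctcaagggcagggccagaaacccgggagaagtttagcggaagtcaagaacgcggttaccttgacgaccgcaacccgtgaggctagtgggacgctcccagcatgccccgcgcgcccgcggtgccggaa
Psmd8: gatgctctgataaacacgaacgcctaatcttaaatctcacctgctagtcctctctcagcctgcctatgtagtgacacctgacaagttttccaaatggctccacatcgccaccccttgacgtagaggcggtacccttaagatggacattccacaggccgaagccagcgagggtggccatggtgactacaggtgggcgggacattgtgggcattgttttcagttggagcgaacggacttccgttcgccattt

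Psma7 held 1 CCAAT match, at -196 from the start, and Psmb5 held TGACGTCGC at -47. The window of Psmb6 in the table also reached 33 bases into the annotated gene, not printed here, and TGACGGAGC lay in that stretch. Psmd13 and Psmd8 held neither motif in these letters. Among the 29 members with a promoter in the table, searched over 250 bases on both strands, TGACNNNGC was found in 5 (17.2%, against 10.2% of all 32851 promoters), namely Psmb5, Psmb6, Psmc6, Psmd12 and Psmd9. CCAAT was found in 12 (41.4% against 33.8%), the E-box CACGTG in 2 (6.9% against 6.0%) and the GC box GGGCGG in 17 (58.6% against 32.7%). A member counted once if any of its promoters matched, and 2 members had more than 1 promoter, whereas the background counts single promoters. CCAAT and TGACNNNGC matches do not mark bound sites. Psmb1, Psmb2, Psmb7, Psma8, Psmc3, Psmd3 and Psmd7 had no entry.

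Of the 3 catalytic genes, Psmb5 read 10.17, 9.75, 9.75, 9.90 and 9.75 in GC cells, and 7.98, 6.38, 7.37 and 8.88 in tumours labelled Bcl6. It read 8.30, 7.89 and 7.59 in tumours labelled Myc/Bcl6, and 9.0 to 10.19 with a median of 9.67 in Lig4/p53 tumours. All 7 tumours of the first pair of groups lay below all GC and all Lig4/p53 arrays. Differences from GC cells were -2.22 ± 0.46 (adjusted p = 0.000587) in tumours labelled Bcl6 and -1.94 ± 0.50 (adjusted p = 0.00255) in those labelled Myc/Bcl6. With the 3' minus 5' difference as a covariate these were -0.83 (adjusted p = 0.44) and -0.71 (adjusted p = 0.38), and neither was called. Lig4/p53 tumours were higher than these by 2.00 and 1.72.

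Psmb6 read 10.04, 9.87, 9.70, 9.40 and 9.48 in GC cells. It read 6.55, 5.03, 7.62 and 8.18 in tumours labelled Bcl6, 7.85, 7.50 and 5.55 in those labelled Myc/Bcl6, and 8.64 to 9.68 with a median of 9.24 in Lig4/p53 tumours. All 7 tumours labelled Bcl6 or Myc/Bcl6 were again below all GC and Lig4/p53 arrays, with differences from GC cells of -2.85 ± 0.58 (adjusted p = 0.000486) and -2.73 ± 0.64 (adjusted p = 0.00102). Psmb7 read 8.68, 4.85, 8.24 and 8.42 in tumours labelled Bcl6, 8.22, 8.56 and 5.62 in those labelled Myc/Bcl6, and 9.52 to 10.05 with a median of 9.78 in Lig4/p53 tumours. Its differences from GC cells were -2.43 ± 0.80 (adjusted p = 0.0233) and -2.50 ± 0.87 (adjusted p = 0.0189). The tumour values of Psmb7, apart from the lowest of each group, were nevertheless above all 4 transitional arrays, so this gene was low in transitional cells as well as in these tumours.

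Among structural core genes, Psma7, an alpha ring subunit, read 10.26, 9.95, 9.71, 9.44 and 9.26 in GC cells and 9.15 to 9.95 with a median of 9.70 in Lig4/p53 tumours. In tumours labelled Bcl6 it read 7.36, 4.94, 8.09 and 8.15, and in those labelled Myc/Bcl6 7.73, 7.36 and 4.43. The highest of these 7, 8.15, was below every one of the other 28 arrays, whose lowest was 8.83. Psma7 differed from GC cells by -2.59 ± 0.54 (adjusted p = 0.000595) and -3.22 ± 0.59.

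Psmb2 read 9.15, 9.03, 8.88, 7.86 and 8.46 in GC cells, and 7.32 to 8.62 with a median of 7.83 in Lig4/p53 tumours. It was lower in tumours labelled Bcl6, at 6.39, 4.37, 6.01 and 6.46, and in those labelled Myc/Bcl6, at 5.38, 4.36 and 5.20. Its differences from GC cells were -2.86 ± 0.74 and -3.69 ± 0.80, the latter the largest of any member in either comparison on the main probe sets. Psmb1 read 8.36, 5.90, 8.79 and 8.75 in tumours labelled Bcl6 and 7.56, 8.03 and 6.04 in those labelled Myc/Bcl6, against 9.13 to 10.09 with a median of 9.78 in Lig4/p53 tumours. The differences of Psmb1 from GC cells were -2.19 ± 0.42 (adjusted p = 0.000226) and -2.93 ± 0.46.

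In the lid, Psmd13, a structural subunit, read 9.16, 9.03, 8.71, 8.43 and 8.31 in GC cells and 7.69 to 8.28 with a median of 8.06 in Lig4/p53 tumours. Tumours labelled Bcl6 gave 5.16, 4.65, 6.60 and 6.77, and those labelled Myc/Bcl6 gave 5.68, 5.32 and 5.86. The highest of these 7 was again below all 28 other arrays, of which the lowest was plasma cell replicate 2 at 7.50. Psmd13 differed from GC cells by -2.93 ± 0.43 (adjusted p = 6.34e-06) and -3.11 ± 0.47. Psmd8, also of the lid, read 9.96, 9.56, 9.35, 9.33 and 8.96 in GC cells, 7.18, 5.98, 7.72 and 7.79 in tumours labelled Bcl6, 7.34, 6.96 and 5.02 in those labelled Myc/Bcl6, and 8.51 to 10.09 with a median of 9.04 in Lig4/p53 tumours. These 7 tumours lay below all GC and Lig4/p53 arrays, and the differences from GC cells were -2.26 ± 0.51 and -3.0 ± 0.56. The genes of the set are spread over the genome: Psmd13 and Psmd8 lie on chromosome 7, Psma7 and Psmb7 on 2, Psmb2 on 4, Psmb6 on 11, Psmb5 on 14 and Psmb1 on 17.

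**Figure D3:**
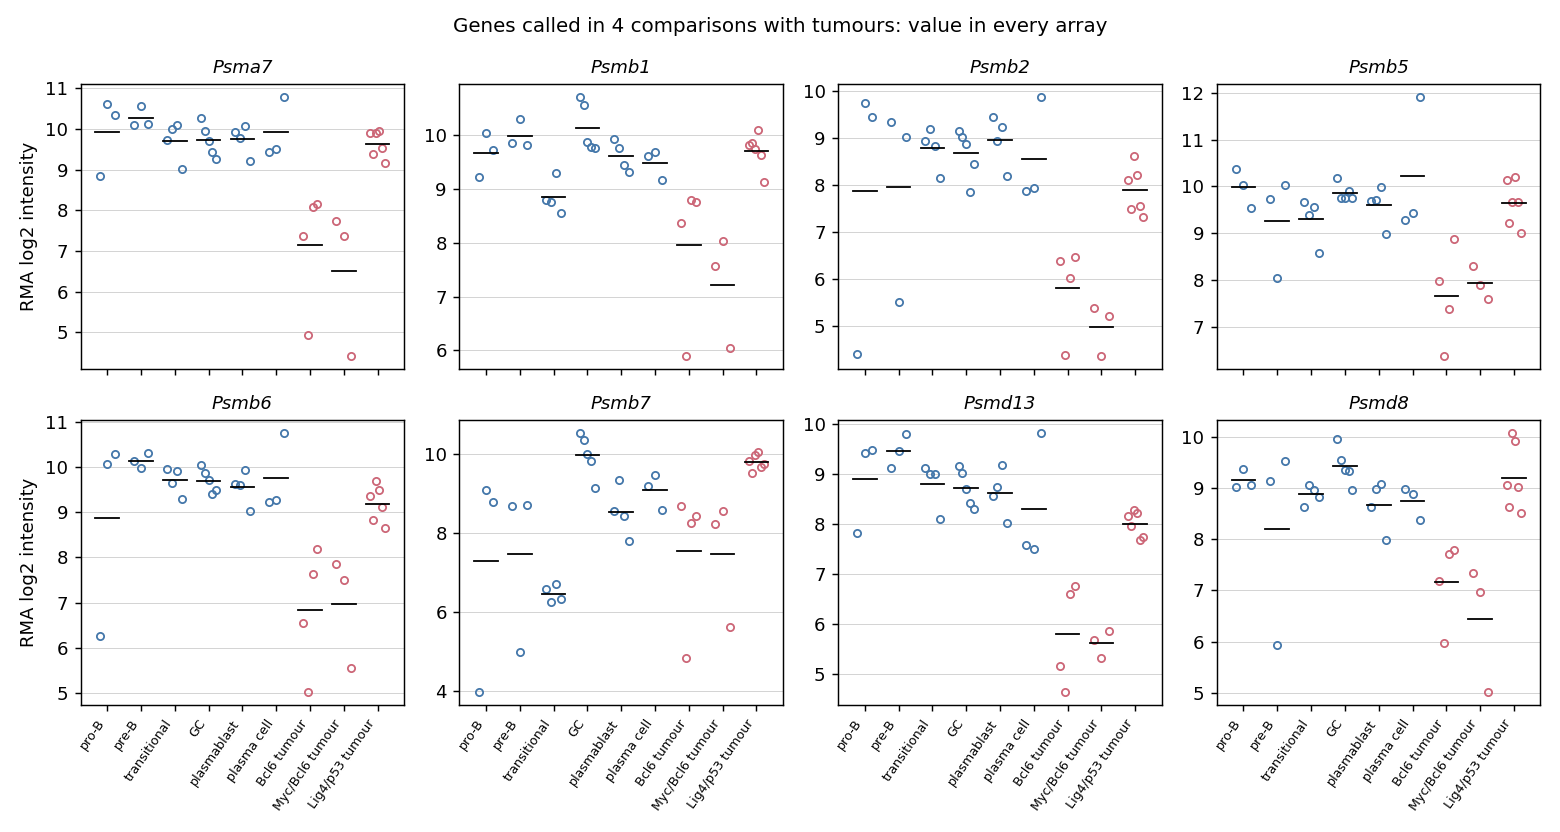
Log2 intensity of the 8 genes called in all 4 comparisons, one panel a gene, in each of the 35 arrays, by group, with group means as bars. The tumours labelled Bcl6 and Myc/Bcl6 lie below the GC and Lig4/p53 arrays in every panel, and replicate 2 of the former is its lowest array in 8 of 8.

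The set was read again under other settings. Without the 3 arrays of narrow spread, 8 of 8 were called in each of the 4 comparisons, with differences from GC cells of -2.55 to -1.51 in tumours labelled Bcl6. After renewed quantile normalization 8 were called in tumours labelled Bcl6 against GC cells and 6 in each of the other comparisons. The 3' minus 5' difference moved with these groups, and so did the 18S rRNA signal, at 10.04 to 11.13 in GC cells, 4.14 to 4.65 in tumours labelled Bcl6 and 4.24 to 4.62 in those labelled Myc/Bcl6; the part of the latter was not tested. With the 3' minus 5' difference as a covariate, differences from GC cells ran from -2.78 to -0.30 in tumours labelled Bcl6, where only Psmb1 was still called, and from -3.46 to -0.71 in those labelled Myc/Bcl6, where Psma7, Psmb1, Psmd13 and Psmd8 were. Psmb2 went from -2.86 to -0.30 and Psmb6 from -2.85 to -1.58 in tumours labelled Bcl6, while Psmb1 went from -2.19 to -2.78 and Psmd8 from -2.26 to -2.36. Between tumour groups 6 and 7 of the 8 were called with it. Macrophage markers averaged 8.82 in tumours labelled Bcl6 (8.14 to 9.82) and 8.01 in those labelled Myc/Bcl6, against 6.93 in GC cells and 6.24 in Lig4/p53 tumours. B-lineage markers averaged 7.50 and 7.11, against 9.46 and 8.46. The part of the cell mixture in the proteasome values was not tested.

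Several genes gave another picture on another probe set, which was examined after the data were seen. Of the 13 members with at least 2 probe sets above the median level, 8 had probe sets of opposite sign in the comparison of tumours labelled Bcl6 with GC cells, and 8 in that of tumours labelled Myc/Bcl6. Psma7 and Psmd13 kept one direction, with both probe sets called: -3.22 and -2.61 for Psma7, and -3.11 and -3.26 for Psmd13, in tumours labelled Myc/Bcl6. Psmb1 did not, since its probe sets gave -2.93, -0.12 and 0.34, and only the first was called. Psmb2, Psmb5, Psmb6, Psmb7 and Psmd8 had 1 probe set each, so no second reading was possible.

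Psma5 and Psmc2 were called both ways in tumours labelled Myc/Bcl6. Psma5 rose by 1.13 on its probe set of highest mean (adjusted p = 0.00384 over all probe sets) and fell by 1.37 on its other bright probe set (adjusted p = 0.0168). Psmc2 rose by 1.20 on the one and fell by 1.36 on the other (adjusted p = 0.0451). Psmb3, the steadiest member on its main probe set (-0.58 in this comparison), gave -4.22 on its other, and Psmb4 gave 0.56 on its main probe set and -2.77 on its other (adjusted p = 0.000523). The higher readings of Psma5, Psmb4 and Psmc2 in these tumours therefore hold for 1 probe set of each gene.

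**Figure D4:**
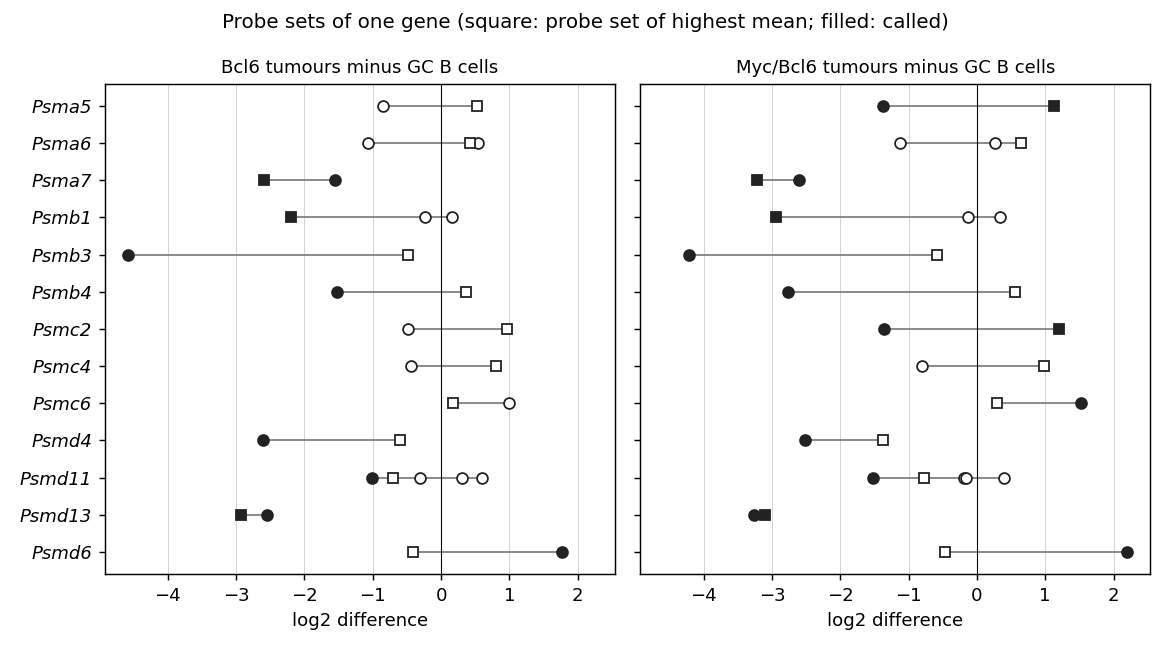
Log2 difference from GC cells for each probe set above the median level of the members that have several, in tumours labelled Bcl6 and in those labelled Myc/Bcl6. A grey line joins the probe sets of a gene, and no standard errors are drawn. The probe sets of Psma7 and of Psmd13 lie on one side of 0, whereas those of Psma5, Psmb4 and Psmc2 lie on both sides.

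Lig4/p53 tumours were set against pro-B cells. Here 8 members rose and none fell, beside 21.1% of all genes called. Of the ATPases, Psmc4 read 8.30, 9.46 and 9.15 in pro-B cells and 10.93 to 11.26 with a median of 11.16 in the tumours, without overlap, and rose by 2.14 ± 0.50. The beta subunit Psmb4 read 7.77, 8.90 and 8.31 against 10.19 to 10.50 with a median of 10.38, and rose by 2.03 ± 0.31 (adjusted p = 2.6e-05). Psma5 rose by 1.29 ± 0.30, Psmc6 by 1.11, Psmc5 by 1.89, Psma6 by 1.92, Psmb7 by 2.51 ± 0.84 and Psmd14, the deubiquitinase of the lid, by 1.49. The median over members was 0.53, beside 0.58 for genes above the median level, and turned to -0.16 without the arrays of narrow spread. The 18S rRNA signal (10.8 to 11.3 in pro-B cells, 4.15 to 6.15 in the tumours) and granulocyte markers (10.77 against 6.30) also differed between these groups, and their part was not tested. Without pro-B replicate 1, of narrow spread, 5 members were called. Without the arrays of narrow spread only Psma5, Psmb4 and Psmc4 rose, and Psmb2, Psmc3ip, Psmd9, Psmd11 and Psmd13 fell.

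Between tumour groups, those labelled Myc/Bcl6 and Bcl6 gave no called member by limma, against 3.91% of all genes, and 1 member had an unadjusted p under 0.05. The median difference was -0.03. There were 2 calls without Bcl6 replicate 2 and 1 without Myc/Bcl6 replicate 3. Leaving out the arrays of narrow spread gave 7 members lower in those labelled Myc/Bcl6 (29.9% of all genes called), among them Psmb1 (-1.43), Psmb2 (-1.31), Psma7 (-1.36) and Psmd2 (-1.35). Lig4/p53 tumours, compared with those labelled Bcl6, had 11 members higher and 1 lower (26.4% of all genes called), with medians of 2.00 for beta genes, 1.27 for lid genes and 0.64 for ATPases. Besides the set of 8, Psmd3 (1.42), Psmc5 (1.34) and Psmc3ip (1.44) rose, and the chaperone Psmd10 fell by 0.82 ± 0.28 (adjusted p = 0.0296). Compared with those labelled Myc/Bcl6, 14 were higher and 1 lower (45.4% of all genes called). Besides the 8, these were Psmd2 (2.31), Psmc1 (1.77), Psmc5 (1.60), the ubiquitin receptor Psmd4 (1.52), Psma4 (1.51) and Psma1 (1.18), while Psma5 fell by 0.93 ± 0.30 on its main probe set and rose by 1.76 on its other bright one, with 0.78 for the mean of its probe sets. There were 7 called members in place of 15 without Myc/Bcl6 replicate 3, and 24 once the arrays of narrow spread were left out. Both comparisons use the same Lig4/p53 arrays. Their member medians of 1.01 and 1.03 stood beside 0.61 and 0.93 for genes above the median level, and the first was 0.57 without the arrays of narrow spread; in the second the members were close to well-expressed genes in general.

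Of the genes that build, steer or feed the proteasome, 35 of the listed ones were measured. Compared with GC cells, 12 were lower and none higher in tumours labelled Bcl6, and 21 lower and 1 higher in those labelled Myc/Bcl6. The chaperones of core assembly Pomp (-1.80 and -2.63) and Psmg2 fell in both, as did the nuclear activator Psme3 (-1.94 and -2.32). Nfe2l1, the transcription factor that induces proteasome genes, fell (-2.24 ± 0.58, adjusted p = 0.00428, and -3.38), and the NF-Y subunits Nfya (-2.17 and -4.34), Nfyb (-2.63 and -3.56) and Nfyc (-1.61 and -1.64) fell as well. Not all listed transcription factors fell. Nfe2l2 read 6.51 to 7.53 in GC cells, 6.81 to 8.28 in tumours labelled Bcl6 and 6.3 to 8.29 in those labelled Myc/Bcl6. For Bach1 the values were 7.64 to 8.2, 7.64 to 9.6 and 9.13 to 9.35. The inducible subunits Psmb8 (-2.64), Psmb9 (-2.42) and Psmb10 (-1.64) and the activator Psme1 (-2.08) fell in tumours labelled Myc/Bcl6. Lig4/p53 tumours had 15 of the 35 higher and 1 lower than tumours labelled Bcl6, and 23 higher and 2 lower than those labelled Myc/Bcl6. Psmg2 was higher by 2.74 and 3.47 and Pomp by 1.45 and 2.28. These 4 counts stand beside the shares of all genes called in the same comparisons, 26.8%, 48.1%, 26.4% and 45.4%. Unlike the members, these 35 genes were not read under other settings, such as the 3' minus 5' covariate.

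In normal stages fewer of the 35 moved, as did fewer of all genes. The shares of all genes called were 0.161% from pro-B to pre-B cells, 5.84% from there to transitional cells and 13.5% to GC cells. They were 0.678% from GC cells to plasmablasts and 14.3% from plasmablasts to plasma cells. Psmg1, a chaperone of the alpha ring, fell by 1.38 from pre-B to transitional cells, rose by 1.67 to GC cells and was higher by 1.36 in plasma cells than in plasmablasts. Psme4, an activator of the core, fell by 1.58 from pre-B to transitional cells and rose by 1.24 from plasmablasts to plasma cells. From transitional to GC cells the deubiquitinase Usp14 (1.83) and the ubiquitin shuttle Ubqln1 (2.22) rose. In plasma cells Ecpas, a proteasome adaptor, rose by 2.07 and the shuttle Ubqln2 fell by 3.88. From pro-B to pre-B cells and from GC cells to plasmablasts limma called none of the 35, and 7 and 3 had an unadjusted p under 0.05.

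Each inducible subunit was then set against the constitutive subunit whose place it can take, as a log2 difference within an array. Only differences between groups were read from this, since 2 probe sets have no common scale. Of 33 exact 2-sided permutation tests (3 pairs in 11 comparisons), none passed after Benjamini-Hochberg adjustment, where the smallest adjusted p was 0.105, and 9 had an unadjusted p under 0.05, the smallest being 0.00952. Tests of 3 arrays against 3 or 4 could not pass, since their smallest possible exact p is 0.1 or 0.0571. With adjustment over 33 tests, the others could pass only if many of them were near their smallest possible p together. No conclusion about these subunits is therefore drawn from the lack of calls. Psmb10 minus Psmb7 was 3.42, 3.31, 2.84 and 3.07 in transitional cells and -1.64, -1.20, -0.81, -1.09 and -0.14 in GC cells. The arrays were apart by a wide gap, with a difference in means of -4.14 (exact p = 0.0159, the smallest that 4 against 5 arrays allow).

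Psmb9 minus Psmb6 was -0.27 ± 0.25 in GC cells (SD, n = 5), 2.25 ± 0.69 in tumours labelled Bcl6 (n = 4) and -1.35 ± 0.42 in Lig4/p53 tumours (n = 6), and the groups did not overlap. Psmb8 minus Psmb5 was 0.10 ± 0.33, 1.50 ± 0.87 and -0.22 ± 0.44, and the tumours labelled Bcl6 stood above both other groups. Psmb9 itself read 9.68, 7.42, 9.53 and 9.73 in tumours labelled Bcl6 and 9.01 to 9.6 in GC cells. Psmb8 read 9.3, 7.06, 10.11 and 10.14 in these tumours and 9.71 to 10.09 in GC cells. Against GC cells the differences thus mostly repeat the lower values of Psmb6 and Psmb5. For both pairs the exact permutation test gave p = 0.0159 against GC cells (n = 4 and 5) and p = 0.00952 against Lig4/p53 tumours (n = 4 and 6), with adjusted p of 0.105. Tumours labelled Myc/Bcl6 were divided for Psmb9 minus Psmb6, with -1.22 and -0.74 in replicates 1 and 2 and 2.08 in replicate 3.

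**Figure D5:**
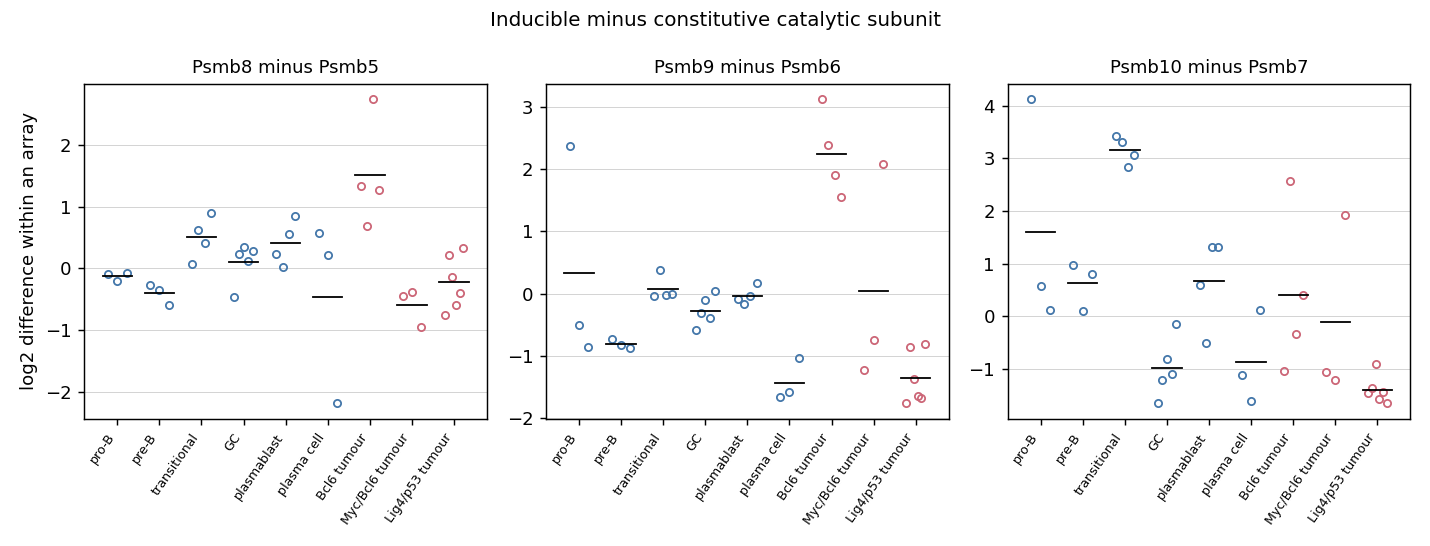
Log2 difference of each inducible subunit from its constitutive counterpart in each array, by group, for Psmb8 minus Psmb5, Psmb9 minus Psmb6 and Psmb10 minus Psmb7. Transitional cells stand at 2.84 to 3.42 for the last pair and GC cells at -1.64 to -0.14, and the tumours labelled Bcl6 lie above GC cells for the first and second pairs.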

How the data were processed

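Affymetrix Mouse 430A2 arrays were hybridized with Tripure RNA after NuGen Ovation V2 amplification, as the labels state. The authors deposited log2 intensities per probe set, made with RMA, per the submitters' processing notes; which arrays were normalized together is not given in the sources used here. The deposited arrays do not share one distribution: the interquartile range over all probe sets ran from 2.03 to 4.23. Of 22690 probe sets, 20380 had 1 gene symbol and were used, while 64 controls, 691 probe sets of several genes and 1555 of no named gene were not. The number of arrays limits the precision.

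Comparisons were limma contrasts with empirical Bayes moderation, on the 22 normal arrays between stages and on all 35 with tumours, adjusted by Benjamini-Hochberg over 12393 genes and called under 0.05. Within-array differences were compared by exact permutation tests. The members, lists and comparisons were chosen with earlier results of these data known. Full statistics were given for up to 4 called members of smallest p in each direction and the catalytic subunits; the set of 8 genes and the single probe sets were singled out after their values were seen. Lists were described by counts and medians, with no set test. Alternatives tried were quantile normalization, the mean over the probe sets of a gene, a filter on dim genes, equal medians, array weights, the compared groups alone, no arrays of narrow spread, covariates for strain or the 3' minus 5' difference, the replicate number as a block, single probe sets, and leaving out each array. The main limma contrasts were first tested on simulated data with known changes, where a gene had the same spread in all arrays. The F-test, the alternatives and the permutation tests were not tested in this way. Same-numbered samples were not paired, since no comparison had every pair's correlation over 0.1. Promoters came from RefSeq (GRCm38.p6), matched by symbol for 29 of 36 members. Fits ran in limma 3.58.1 (R 4.3.3, statmod 1.5.0). Other steps ran in scipy 1.17.1, pandas 2.3.3 and numpy 2.4.6 under Python 3.11.15, and plots in matplotlib 3.10.9.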

Additional observations from a re-analysis of the deposited data

Results flagged for a closer look

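In 25 tests of a group for an array far from the others, 5 values stood out, where chance gives about 1 in 20. All came from replicate 2 of the tumours labelled Bcl6 or replicate 4 of the plasmablasts. Groups of 3 arrays were too small for this test. Pro-B, pre-B and plasma cells and the tumours labelled Myc/Bcl6 were therefore not examined. The tests share arrays, and Psmb7 is part of the core mean, so they are not independent. In tumours labelled Bcl6, replicate 2 had a core particle mean of -2.02, with the nearest array at -0.54, and a regulatory particle mean of -1.43, with the nearest at -0.25. The same tumour had Psmb7, the trypsin-like subunit, at 4.85, with the nearest at 8.24. It is one of the arrays of narrow spread. In plasmablasts, replicate 4 had a core mean of -0.55, with the nearest array at 0.05, and a regulatory mean of -0.46, with the nearest at 0.2.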

How the results depend on the processing

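Of 66 calls of single members, 19 were kept under every alternative other than the reading of single probe sets, and 5 values reversed; Psmb1 in tumours labelled Myc/Bcl6 against GC cells, among the 19, was called on only 1 of its 3 probe sets. With the mean of all probe sets, Psma5 was -0.15 and Psmc2 -0.082 in tumours labelled Myc/Bcl6 against GC cells, and Psma5 was 0.78 in Lig4/p53 tumours against those labelled Myc/Bcl6. With the 3' minus 5' covariate Psmc3ip was 0.14 and 0.17 in tumours labelled Bcl6 and Myc/Bcl6 against GC cells. The cause was not tested.

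Counts of called members moved as follows. The share of all genes called can move with the setting as well, so a count alone is not a result about the members. Without the arrays of narrow spread that share was 14.0% (transitional), 41.5% (GC), 6.82% (plasmablasts) and 32.5% (plasma cells). It was 64.0% for tumours labelled Myc/Bcl6 against GC cells and 62.7% in the F-test. Transitional against pre-B cells (1): 0 with the mean of all probe sets, the dim filter, the groups alone or the replicate block, 4 without arrays of narrow spread and 2 with the 3' minus 5' covariate. GC against transitional cells (4): 2 with quantile normalization, 10 with array weights, 11 in the groups alone, 11 without arrays of narrow spread and 0 with the strain covariate. Plasmablasts against GC cells (1): 0 with the mean of all probe sets, the dim filter or quantile normalization, 2 with equal medians, 9 with array weights, 6 alone, 3 without narrow arrays and 2 with the covariate. Plasma cells against plasmablasts (1): 2 with the mean, quantile normalization or equal medians, 22 with array weights, 8 alone, 12 without narrow arrays and 3 with the covariate. Tumours labelled Bcl6 against GC cells (10): 17 with array weights and 2 with the 3' minus 5' covariate. Those labelled Myc/Bcl6 against GC cells (14): 23 without narrow arrays and 6 with the covariate. Lig4/p53 tumours against pro-B cells (8): 19 with array weights and 5 alone. Labelled Myc/Bcl6 against Bcl6 (0): 7 without narrow arrays. Lig4/p53 against labelled Bcl6 (12): 7 with quantile normalization, 19 with array weights and 20 alone, and against labelled Myc/Bcl6 (15): 9 with quantile normalization and 24 without narrow arrays. The F-test over stages (6): 29 with array weights, 19 without narrow arrays and 10 with the covariate.

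Quantile normalization gave 4 members higher and 9 lower in tumours labelled Bcl6 against GC cells, and 6 higher and 7 lower in those labelled Myc/Bcl6. It moved the median of all genes from -0.27 to -0.06 in GC against transitional cells. With the replicate number as a block, other counts were 4 for GC cells, 10 and 13 for tumours labelled Bcl6 and Myc/Bcl6 against GC cells, 7 for Lig4/p53 tumours against pro-B cells, and 9 and 15 against the other tumours; numbers did not pair the samples (correlations -0.49 to 0.39).

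Leaving out 1 array at a time gave 0 to 1 (transitional), 4 to 5 (GC), 0 to 1 (plasmablasts) and 1 to 3 (plasma cells) members, 8 to 10 and 9 to 14 for tumours labelled Bcl6 and Myc/Bcl6 against GC cells (9 without Myc/Bcl6 replicate 3), 5 to 9 for Lig4/p53 tumours against pro-B cells (5 without pro-B replicate 1), 0 to 2 between the labelled Myc/Bcl6 and Bcl6 tumours (2 without Bcl6 replicate 2), 8 to 12 for Lig4/p53 against labelled Bcl6 (8 without Bcl6 replicate 2 or Lig4/p53 replicate 1 or 3), 7 to 17 against labelled Myc/Bcl6 (7 without Myc/Bcl6 replicate 3) and 5 to 10 in the F-test. Arrays give no counts, so signal near background limits Psma8.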
